A study of Drosophila melanogaster with 15 samples.

Results

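The genes described here are the cytochrome P450 genes of *Drosophila melanogaster*, measured in the male antenna. They were chosen by symbol alone: a gene was taken when its FlyBase symbol is Cyp followed by a family number, a subfamily letter or letters and a gene number. Of the 17490 genes in the deposited tables, 81 met this rule. Gene identifiers named 80 of them, and *Cyp6a21* (FBgn0033981 in the tables) was named by its position, 2R:14885264-14886947 on dm6, which is the position the annotation gives for that symbol.

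P450 enzymes are heme proteins that insert an oxygen atom into small hydrophobic molecules. In flies they break down insecticides and plant toxins, make and inactivate the molting hormone ecdysone, and take part in making the hydrocarbons of the cuticle. In insect antennae they are also studied as odorant-degrading enzymes, and many are made by the non-neuronal support cells that surround olfactory neurons. The number after Cyp gives the family, and insect families fall into the CYP2, CYP3, CYP4 and mitochondrial clans. The CYP3 clan holds the families best known for detoxification, the CYP4 clan is known for fatty acid and hydrocarbon metabolism, and the mitochondrial clan receives its electrons from a ferredoxin in place of P450 reductase.

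The study asked how social experience, pheromone receptors and the male-specific Fruitless protein (FruM) affect antennal transcripts. Each RNA-seq sample was made from about 180 antennae, cut at the third antennal segment, of 7-day-old males, and a vial of group-housed flies held 25 to 30 of them. The w1118 SH males (3 samples) were white-eyed wild-type flies that were single-housed from the pupal stage. The *Or47b1* males (3 samples) were group-housed and homozygous for a mutant allele of *Or47b*, a receptor for fly-derived fatty acid pheromones, and they also carried *Or47b-GAL4* and *UAS-mCD8GFP*, so a GFP reporter was expressed in the Or47b neurons. The *Or67dGAL4* males (3 samples) were group-housed and homozygous for a GAL4 allele of *Or67d*, the receptor for the male pheromone cis-vaccenyl acetate, and they also carried *UAS-mCD8GFP*. The *fruLexA/fru4-40* males (2 samples used) were group-housed, carried w+ and lacked FruM. The w1118 GH males (3 samples) were white-eyed, wild-type and group-housed, and every other group was compared with them. The 3 mutant groups differ from w1118 GH in transgenes, eye color allele or line as well as in the targeted gene, and these differences cannot be told apart. In whole antennae, fewer cells of a type and less RNA per cell cannot be told apart either.

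Total counts on genes ran from 8570425 to 14908299 in the 14 samples used. P450 genes received 1.32% to 1.43% of them in w1118 SH, 1.42% to 1.65% in *Or47b1*, 1.67% to 2.06% in *Or67dGAL4*, 1.70% to 1.74% in *fruLexA/fru4-40* and 1.35% to 1.39% in w1118 GH. At the targeted receptors, *Or47b* fell by 7.43 on the log2 scale in *Or47b1* and *Or67d* fell by 7.00 in *Or67dGAL4* relative to w1118 GH, while the sum over the whole *fru* gene (log2 fold change -0.15 ± 0.14, SE, adjusted p = 0.44, edgeR) does not test for FruM. In *fruLexA/fru4-40*, *Or47b* averaged 79.7 RPKM (counts scaled to exon length and library size), against 127.6 RPKM in w1118 GH. *Or67d* averaged 44.8 RPKM, against 74.5 RPKM, and these 2 decreases passed at an adjusted p under 0.05 in edgeR. Of the antennal markers, all 7 were detected, with a summed level of 8590 to 12100 RPKM over the samples. They did not move together. Of the 7, 3 were higher and 2 lower in *Or47b1*, 1 and 3 in *Or67dGAL4* and 3 and 3 in *fruLexA/fru4-40*. *lush* was higher in all 3 mutants (log2 fold changes 0.56, 0.80 and 0.74, in the order of the groups above). Mean levels of *Obp28a* were 3485, 2164 and 3726 RPKM in that order, against 2442 RPKM in w1118 GH. Those of *Obp19d* were 5321, 4718 and 5570 RPKM, against 4113 RPKM. *Ir25a* (-0.35, -0.77 and -0.55) and *Or42b* (-0.73, -0.60 and -0.85) were lower in the 3 mutants. *Orco* was lower in *Or67dGAL4* (-0.23) and *fruLexA/fru4-40* (-0.42). The remaining *fruLexA/fru4-40* sample, replicate 1, carries a quality warning in its label, has 5907543 counts and is given only where it is named. Its P450 genes received 0.992% of the counts, below the share in each of the 14 samples used. Replicate 2 of w1118 GH stood apart in its group, with a chi-square per degree of freedom of its counts of 34.3 and 24.2 against the other samples, which had 8.31 between them. Its 4 accessory gland and testis markers summed to 35.3 RPKM, against at most 3.31 RPKM in the 13 other samples, and its muscle markers to 62.7 RPKM, against 8.83 and 22.9 RPKM in the other w1118 GH samples. Without it, the counts of P450 genes past the threshold against w1118 GH were 0 for w1118 SH, 20 for *Or47b1* males, 30 for *Or67dGAL4* males and 27 for *fruLexA/fru4-40* males, in place of 1, 24, 32 and 26. In *Or67dGAL4*, the chi-square per degree of freedom was 25.5 and 17.5 for replicate 1 and 12.7 between the other samples. Between the 2 *fruLexA/fru4-40* samples used it was 23.1.

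P450 transcripts spanned a wide range of levels in the antenna. Mean RPKM in w1118 GH was at least 100 for 15 genes, between 10 and 100 for 27, between 1 and 10 for 14 and under 1 for 25. The 4 highest were *Cyp6g1* (1057 ± 127 RPKM, SD, n = 3), known for resistance to DDT and neonicotinoids when overexpressed, *Cyp4e2* (991.3 ± 65.02), *Cyp6w1* (964 ± 30.1) and *Cyp6a20* (824 ± 13.3), which has been tied to male aggression and social experience. Together they made up 54.3% of the summed P450 RPKM in w1118 GH. The next were *Cyp6a8* (405 RPKM), *Cyp6t3* (334 RPKM), *Cyp9f2* (289 RPKM), *Cyp308a1* (245 RPKM), *Cyp313a1* (178 RPKM) and *Cyp6a2* (168 RPKM). Of these 10, 7 belong to families 6 and 9. The CYP2 clan, whose members act mostly in development, was low, with its highest member, *Cyp305a1*, at 3.74 ± 0.296 RPKM. Its *Cyp18a1*, an ecdysone-inactivating enzyme, averaged 0.305 RPKM and *Cyp303a1*, needed for sensory bristle development, 0.354 RPKM in w1118 GH.

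**Figure D1:**
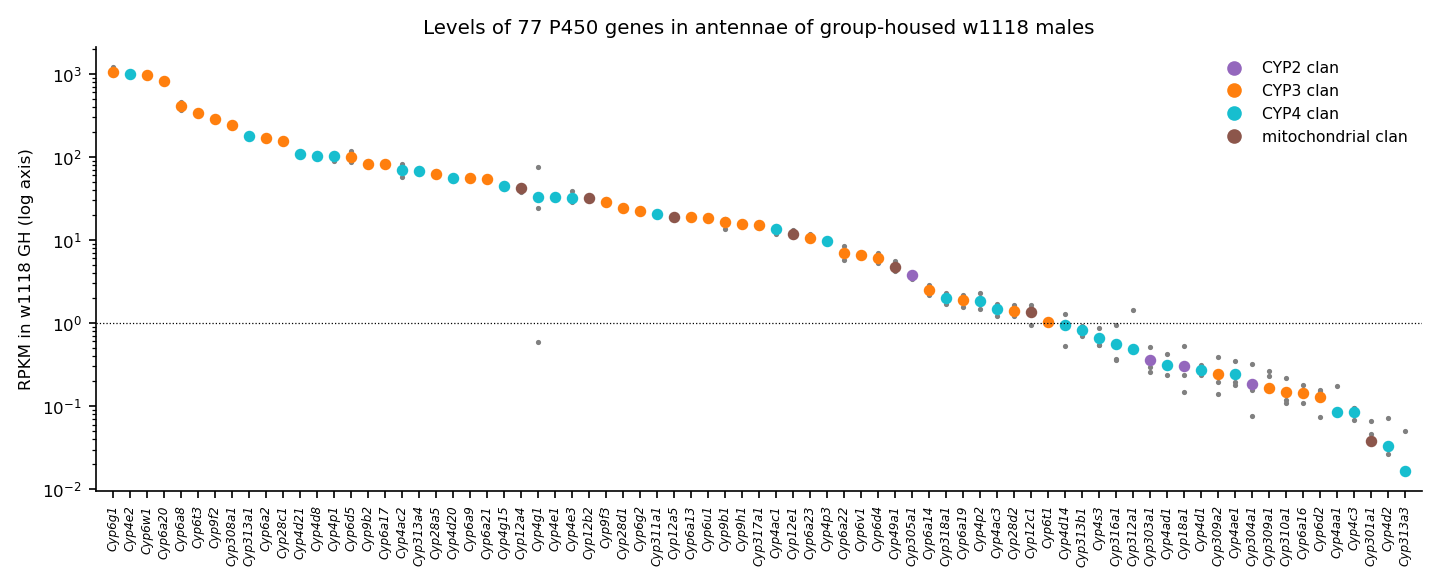
RPKM (log axis) in the 3 w1118 GH samples for the 77 P450 genes with a mean above 0 there, ranked by the mean. Colored points are means, colored by clan, small gray points are samples above 0, and the dotted line marks 1 RPKM. The levels fall from 1057 RPKM for *Cyp6g1* to under 1 RPKM for the genes at the right end, with CYP2 genes all below 4 RPKM.

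edgeR's filter on low counts kept 65 of the 81 genes for testing, from 10358 genes in all. The 16 genes left out had at most 54 counts in any of the 14 samples, 6 genes (tested or not) had at most 3 counts in each sample, and *Cyp9c1* had none. They are *Cyp301a1*, *Cyp304a1*, *Cyp309a2*, *Cyp312a1*, *Cyp313a2*, *Cyp313a3*, *Cyp313a5*, *Cyp4aa1*, *Cyp4ad1*, *Cyp4ae1*, *Cyp4c3*, *Cyp4d2*, *Cyp6a16*, *Cyp6a18*, *Cyp6d2* and *Cyp9c1*. Low counts in these genes limit what could be seen, and they are not counted among the genes that did not differ.

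A quasi-likelihood fit in edgeR to the 14 samples gave, for each gene, a log2 fold change with its standard error (SE) and a p-value adjusted by the Benjamini-Hochberg method over all 10358 genes, with 0.05 as the threshold. The 4 comparisons with w1118 GH share its 3 samples. At this threshold 46 of the 65 P450 genes differed somewhere among the 5 groups, against 60.0% of all tested genes. Against w1118 GH, 45 P450 genes passed in at least 1 mutant, against 51.9% of all tested genes, and 20 in none. Among the 20 were *Cyp6t3*, *Cyp308a1*, *Cyp28c1*, *Cyp6g2* and *Cyp4g1*.

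Single housing moved P450 transcripts little. Of the 65 genes, 1 passed, *Cyp9h1*, which was higher in w1118 SH, against 0.994% of all tested genes that passed (0.685% higher). *Cyp9h1* was at 21.9, 22.0 and 24.4 RPKM in w1118 SH, against 15.5, 14.5 and 16.3 RPKM in w1118 GH. Its samples did not overlap between the groups, and the log2 fold change was 0.56 ± 0.12 (SE, adjusted p = 0.043, edgeR). This call is lost in 13 of 22 other settings, where its log2 fold change ran from 0.52 to 0.60, among them those without replicate 2 or 3 of w1118 SH, replicate 1 or 3 of *Or47b1*, either *fruLexA/fru4-40* sample or any 1 of the w1118 GH samples. At an unadjusted p under 0.05 the count was 14, against 15.8% of all tested genes, and 16 of the 65 P450 genes had no overlap between w1118 SH and w1118 GH, against 22.0% of all tested genes.

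The social-experience gene *Cyp6a20* lies in a group of P450 neighbors at 2R:14882118-14884046. In w1118 SH it stood at 758.5, 764 and 756 RPKM, against 812, 838 and 821 RPKM in w1118 GH. These ranges do not overlap, and the log2 fold change of -0.12 ± 0.08 (SE, adjusted p = 0.49, edgeR) did not pass. *Cyp4p2*, linked by the study to hormone metabolism and insecticide breakdown, was at 1.20, 2.18 and 1.42 RPKM in w1118 SH, against 1.68, 1.49 and 2.31 RPKM in w1118 GH, and the groups overlap.

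In the mutants *Cyp6a20* was lower. It stood at 655, 674 and 572 RPKM in *Or47b1*, at 249.9, 233 and 207 RPKM in *Or67dGAL4* and at 339 and 322 RPKM in *fruLexA/fru4-40*, against 812, 838 and 821 RPKM in w1118 GH. No mutant sample reached the w1118 GH range. It fell by 0.38 ± 0.08 on the log2 scale in *Or47b1* (adjusted p = 0.0029), by 1.84 ± 0.08 in *Or67dGAL4* (3.3e-09) and by 1.32 ± 0.09 in *fruLexA/fru4-40* (5.5e-07, edgeR). The levels also differed between mutants, with *Or67dGAL4* lower than *Or47b1* (log2 fold change -1.46, adjusted p = 2.4e-08, edgeR) and *fruLexA/fru4-40* higher than *Or67dGAL4* (0.52, adjusted p = 0.00093, edgeR). The order of mean levels was thus *Or67dGAL4*, *fruLexA/fru4-40*, *Or47b1*, w1118 SH and w1118 GH, in which the last pair did not differ by the test. All *Or47b1* samples lay below those of w1118 SH. A fit with w1118 SH as the reference was among the alternatives, and its value for this gene is not given here. The excluded *fruLexA/fru4-40* replicate 1 was at 363 RPKM.

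*Cyp4p2*, at 2R:9237512-9239831, behaved differently. It had 9, 7 and 2 counts in *Or47b1*, against 46, 29 and 46 counts in w1118 GH, which is 0.449, 0.399 and 0.129 RPKM against 1.68, 1.49 and 2.31 RPKM. It fell by 2.43 ± 0.42 on the log2 scale in *Or47b1* (adjusted p = 0.0011, edgeR). The summed counts give a 5.54-fold lower level in *Or47b1* with a 95% counting interval of 3.36 to 9.67. In *Or67dGAL4* the values of 0.675, 0.903 and 1.33 RPKM lay below the w1118 GH range without passing (log2 fold change -0.91 ± 0.38, adjusted p = 0.09, edgeR). In *fruLexA/fru4-40* the values of 3.09 and 2.33 RPKM lay above it without passing (0.57 ± 0.40, adjusted p = 0.30, edgeR). Between mutants, *Cyp4p2* was higher in *Or67dGAL4* than in *Or47b1*, a difference that passed. The difference between *fruLexA/fru4-40* and *Or47b1* also passed, at 3.00 ± 0.45 (adjusted p = 0.0004, edgeR), as did that between *fruLexA/fru4-40* and *Or67dGAL4*, at 1.48 ± 0.41 (0.021). The last call is lost without replicate 1 or 2 of *Or67dGAL4* or either *fruLexA/fru4-40* sample (adjusted p up to 0.18, edgeR).

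**Figure D2:**
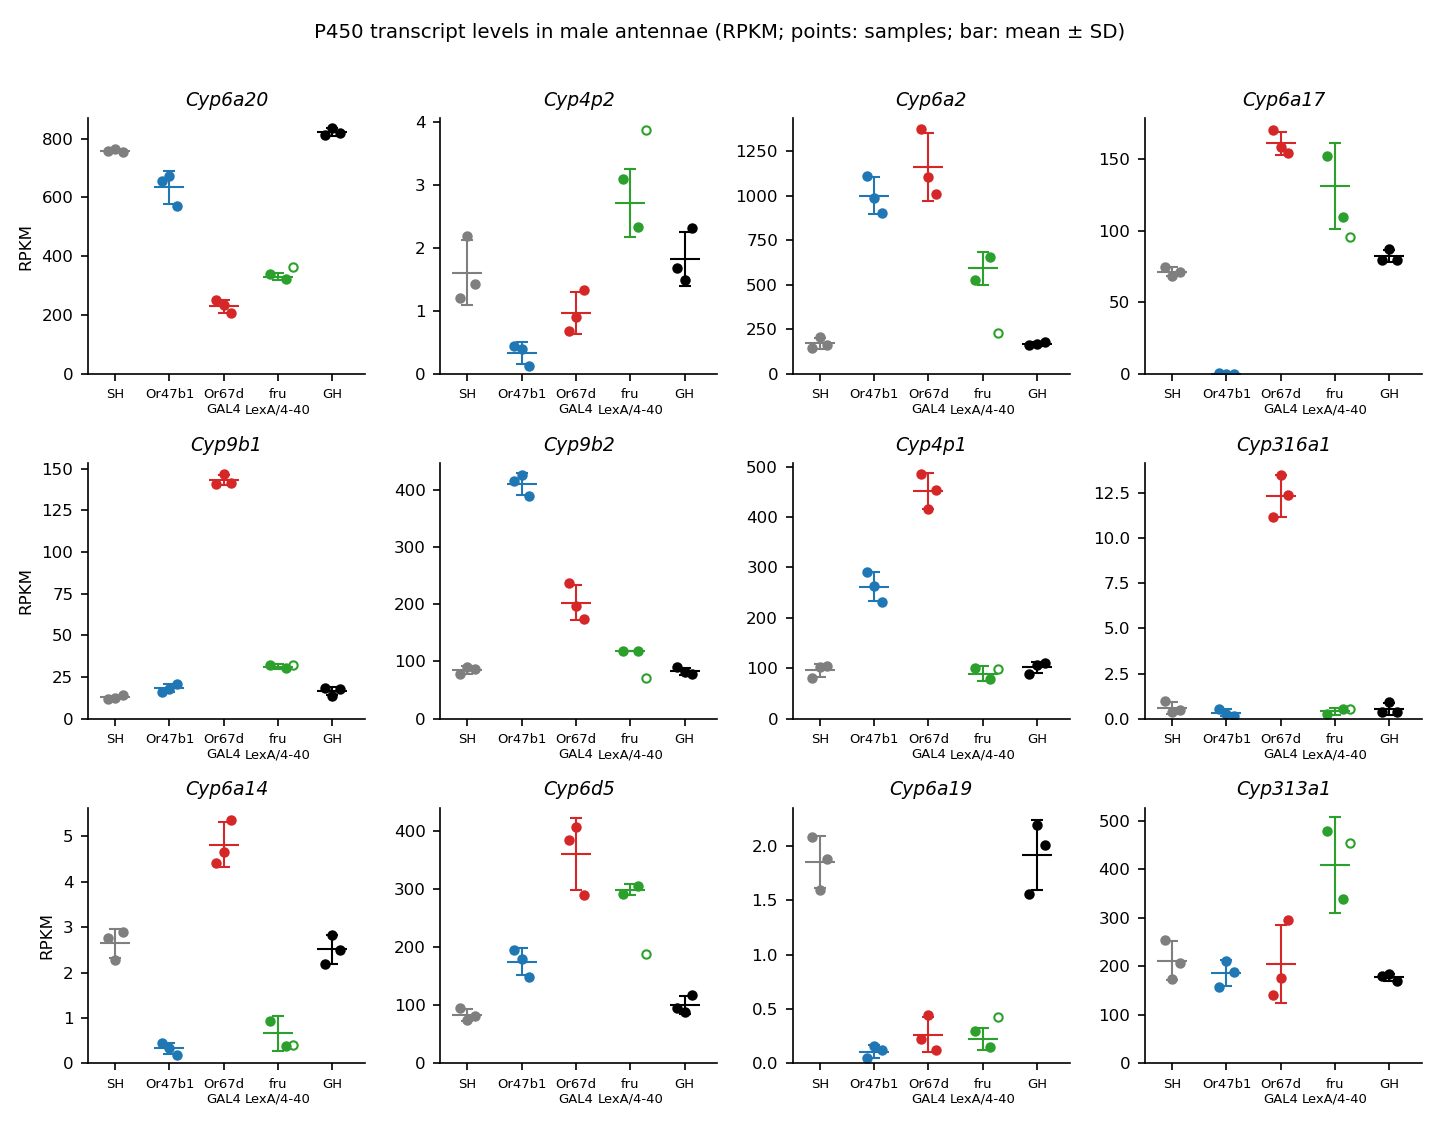
RPKM of 12 P450 genes in each sample (filled points) with the mean and SD of each group. Groups run from w1118 SH and the 3 mutants to w1118 GH at the right, each axis starts at 0, and the open green circle is *fruLexA/fru4-40* replicate 1, which is in no mean. *Cyp6a20* and *Cyp6a19* are lower in the 3 mutants, *Cyp6a2* and *Cyp6d5* higher, and *Cyp6a17* is near 0 only in *Or47b1*.

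In *Or47b1* as many P450 genes were higher as lower. Of the 65 tested, 24 passed, 12 higher and 12 lower, against 20.4% of all tested genes (10.5% higher and 9.97% lower). Samples did not overlap for 37 of the 65, against 40.8% of all tested genes. The median log2 fold change was 0.01 over the P450 genes and -0.01 over all tested genes. The 5 largest increases were in *Cyp6a2* (2.57), *Cyp9b2* (2.31), *Cyp310a1* (2.18), *Cyp313b1* (1.60) and *Cyp4p1* (1.36), and the 5 largest decreases were in *Cyp6a17* (-8.68), *Cyp6a22* (-4.34), *Cyp6a19* (-4.10), *Cyp6a14* (-2.89) and *Cyp4p2* (-2.43). The other 14 log2 fold changes lay between -1.93 for *Cyp318a1* and 1.12 for *Cyp6a23*.

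In *Or67dGAL4* more P450 genes were higher than lower. Of the 65, 32 passed, 25 higher and 7 lower, against 29.5% of all tested genes (14.4% higher and 15.1% lower). Samples did not overlap for 39 of the 65, against 42.0% of all tested genes. The median log2 fold change was 0.21 over the P450 genes and -0.02 over all tested genes. The 5 largest increases were in *Cyp316a1* (4.49), *Cyp9b1* (3.11), *Cyp6a2* (2.79), *Cyp4p1* (2.15) and *Cyp4e3* (1.94). The 7 decreases were in *Cyp6a19* (-2.79), *Cyp6a20* (-1.84), *Cyp6a13* (-0.98), *Cyp9h1* (-0.95), *Cyp12e1* (-0.72), *Cyp6a8* (-0.61) and *Cyp4g15* (-0.36).

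In *fruLexA/fru4-40*, too, more P450 genes were higher than lower. Of the 65, 26 passed, 23 higher and 3 lower, against 30.8% of all tested genes (15.5% higher and 15.3% lower). Samples did not overlap for 45 of the 65, against 56.6% of all tested genes, with 2 samples in this group in place of 3. The median log2 fold change was 0.29 over the P450 genes and 0.04 over all tested genes. The 5 largest increases were in *Cyp6a2* (1.82), *Cyp6a23* (1.66), *Cyp6d5* (1.58), *Cyp4d20* (1.39) and *Cyp4e3* (1.21), and the 3 decreases were in *Cyp6a19* (-3.06), *Cyp6a14* (-1.92) and *Cyp6a20* (-1.32). The count is 17 without replicate 2 of this group and 21 when replicate 1 is added. For 20 of the 26, replicate 1 lay on the same side of the w1118 GH mean, the exceptions being *Cyp12a4*, *Cyp12c1*, *Cyp4e1*, *Cyp6a13*, *Cyp9b2* and *Cyp9f2*, and replicate 1 lay below both other samples for 47 of the 65 genes. The positions of replicate 1 were not counted over all tested genes, so they are not read as particular to P450 genes.

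Across the 3 mutants, 11 of the 65 P450 genes passed in all of them, 15 in exactly 2 and 19 in exactly 1, against 6.74%, 15.3% and 29.9% of all tested genes. Higher in all 3 were *Cyp12b2*, *Cyp4d20*, *Cyp6a2*, *Cyp6a21*, *Cyp6a23*, *Cyp6d5* and *Cyp9b2*. Lower in all 3 were *Cyp6a19* and *Cyp6a20*. *Cyp6a14* and *Cyp6a17* passed in all 3 but with opposite signs, and *Cyp6a9*, *Cyp6a13*, *Cyp12e1* and *Cyp28a5* passed with opposite signs in 2 mutants. These counts rest on 1 shared set of w1118 GH samples. The shares of all tested genes disregard sign, and none was computed by direction.

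**Figure D3:**
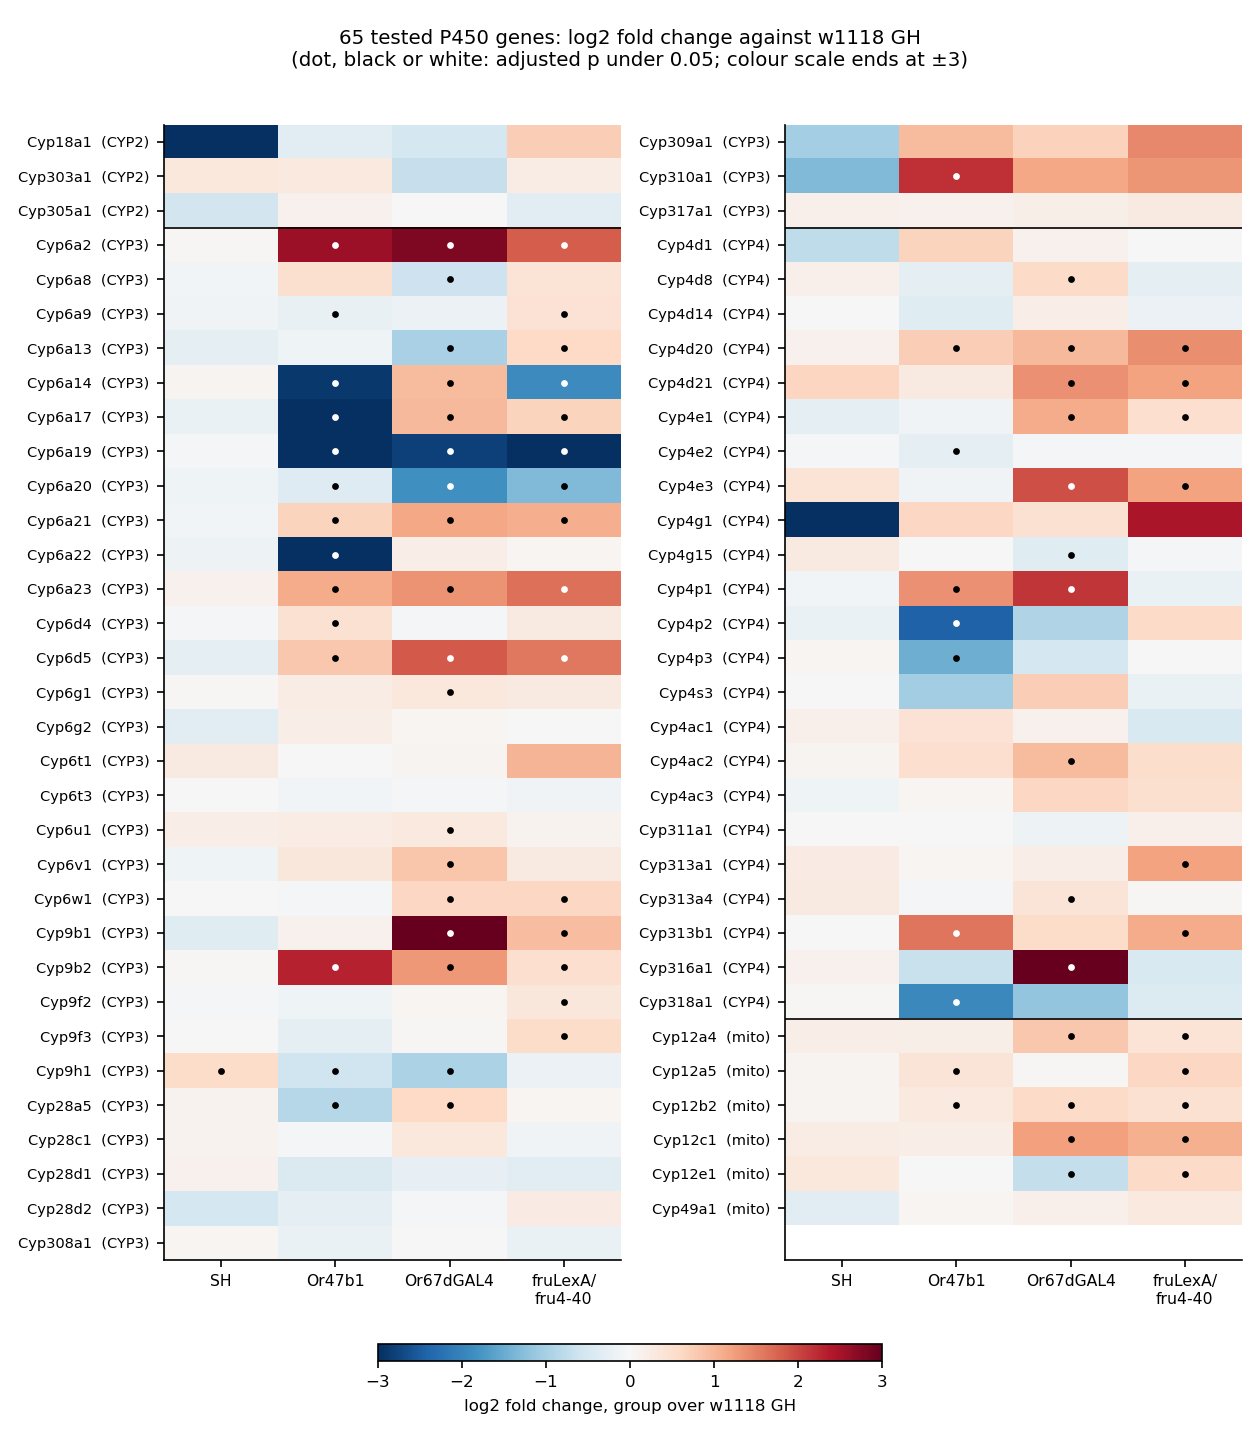
Log2 fold change over w1118 GH of the 65 tested P450 genes (rows, ordered by clan, family and subfamily) in the 4 other groups (columns, w1118 SH at the left). Red is higher and blue lower than w1118 GH, colors saturate at 3 on the log2 scale, and dots mark an adjusted p under 0.05 in edgeR. The w1118 SH column holds 1 dot, and the mutant columns hold 24, 32 and 26.

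Direct tests between mutants also separated them. Between *Or67dGAL4* and *Or47b1*, 32 of the 65 P450 genes differed, 23 higher and 9 lower in *Or67dGAL4*, against 26.8% of all tested genes, and samples did not overlap for 42, against 41.2%. Between *fruLexA/fru4-40* and *Or47b1* the count was 27, 22 higher and 5 lower in *fruLexA/fru4-40*, against 31.6% of all tested genes, and samples did not overlap for 38, against 57.5%. Between *fruLexA/fru4-40* and *Or67dGAL4* it was 25, 12 higher and 13 lower in *fruLexA/fru4-40*, against 24.2%, and samples did not overlap for 37, against 47.4%. In all, 42 of the 65 passed in at least 1 of these 3 tests, against 5073 of the 10358 tested genes. Among the 20 genes with no call against w1118 GH, 3 passed between mutants. *Cyp28c1*, among the more abundant at 153 RPKM in w1118 GH, was higher in *Or67dGAL4* than in *Or47b1* by 0.39 and lower in *fruLexA/fru4-40* than in *Or67dGAL4* (-0.43), with overlapping samples and with calls that are lost in 10 and 17 other settings. *Cyp4s3* was higher in *Or67dGAL4* than in *Or47b1* (1.78 ± 0.47, adjusted p = 0.014, edgeR) on at most 28 counts, and *Cyp4ac1* was lower in *fruLexA/fru4-40* than in *Or47b1* (-0.88 ± 0.23, adjusted p = 0.01, edgeR).

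The CYP3 clan held 38 of the 81 genes and 33 of the 65 tested. Of these 33, 7 were higher and 8 lower in *Or47b1*, 13 higher and 5 lower in *Or67dGAL4* males and 12 higher and 3 lower in *fruLexA/fru4-40*, each against w1118 GH. Of all tested genes, 20.4%, 29.5% and 30.8% passed in these mutants, in either direction. The median log2 fold changes of the 33 were -0.05, 0.21 and 0.28. Subfamily 6a, which includes several xenobiotic-inducible enzymes, had 11 tested genes, of which 9 passed in each mutant: 3 higher and 6 lower in *Or47b1*, 5 higher and 4 lower in *Or67dGAL4*, and 6 higher and 3 lower in *fruLexA/fru4-40*.

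*Cyp6a2*, a phenobarbital-inducible enzyme that can metabolize insecticides, rose in all 3 mutants. It was at 1112, 988 and 905 RPKM in *Or47b1*, at 1374, 1104 and 1009 RPKM in *Or67dGAL4* and at 527 and 657 RPKM in *fruLexA/fru4-40*, against 160.3, 166 and 178 RPKM in w1118 GH. Each mutant sample was above every w1118 GH sample, and w1118 SH at 147.5, 206 and 159.8 RPKM overlapped w1118 GH. The log2 fold changes were 2.57 ± 0.15 in *Or47b1*, 2.79 ± 0.15 in *Or67dGAL4* males and 1.82 ± 0.16 in *fruLexA/fru4-40* (adjusted p of 6.4e-08, 3.6e-08 and 4.8e-06, edgeR), and *fruLexA/fru4-40* replicate 1 was closer to w1118 GH, at 229.9 RPKM. At these levels *Cyp6a2* ranked with *Cyp6g1*, *Cyp6w1* and *Cyp4e2* in the *Or47b1* and *Or67dGAL4* antennae.

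The largest group of P450 neighbors is a run of 9 genes over 31.7 kb of 2R, each within 20 kb of the next, and it holds *Cyp6a20*. From 2R:14871366 to 2R:14903095 the order is *Cyp6a22*, *Cyp6a17*, *Cyp6a23*, *Cyp6a19*, *Cyp6a9*, *Cyp6a20*, *Cyp6a21*, *Cyp6a8* and *Cyp317a1*. Neighbors moved in opposite directions. *Cyp317a1* and, outside *Or67dGAL4*, *Cyp6a8* did not pass in any mutant. Close P450 paralogs can share reads. The methods state a filter on mapping quality and further alignments to check mapping ambiguity, but not how the counts used here treat reads shared by copies, so single values in this run are less certain than for isolated genes.

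*Cyp6a17*, known for its role in temperature preference, had almost no reads in *Or47b1*. It had 6, 1 and 3 counts there, against 2129, 1655 and 1547 counts in w1118 GH, while the next gene to the right, *Cyp6a23*, rose in the same samples. The ratio of the summed counts, scaled by library, was 439-fold lower in *Or47b1* with a 95% counting interval of 239 to 917. In the other mutants *Cyp6a17* was higher, at 170.3, 158.9 and 154.4 RPKM in *Or67dGAL4* (log2 fold change 0.97 ± 0.12, adjusted p = 5.3e-05, edgeR) and 152.4 and 109.8 RPKM in *fruLexA/fru4-40* (0.67 ± 0.13, adjusted p = 0.0019, edgeR), against 80.0, 87.3 and 79.9 RPKM in w1118 GH. The samples of these mutants lay above the w1118 GH range, and those of w1118 SH, at 74.5, 68.5 and 71.3 RPKM, below it without passing the test.

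*Cyp6a22*, just to the left of *Cyp6a17*, was also low only in *Or47b1*, at 7, 9 and 6 counts there, against 191, 199 and 170 counts in w1118 GH. The log2 fold change was -4.34 ± 0.22 (adjusted p = 1.8e-08, edgeR), against 0.21 and 0.07 in *Or67dGAL4* and *fruLexA/fru4-40*, neither of which passed. The differences of these mutants from *Or47b1* were 4.56 and 4.41 (adjusted p of 1.3e-08 and 5.1e-08, edgeR).

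*Cyp6a19* was low in all 3 mutants. It had 1, 3 and 2 counts in *Or47b1*, 4, 9 and 2 counts in *Or67dGAL4* and 6 and 3 counts in *fruLexA/fru4-40*, against 46, 46 and 43 counts in w1118 GH. The summed counts were 18.5-fold lower in *Or47b1* (95% counting interval 8.30 to 51.4), 6.98-fold lower in *Or67dGAL4* (4.09 to 12.8) and 8.54-fold lower in *fruLexA/fru4-40* (4.37 to 19.1). The 3 decreases passed (adjusted p of 5e-05, 0.00037 and 0.00088, edgeR) and the differences between the mutants did not. Its exons overlap those of *Cyp6a9* on the other strand by 397 bases, and the libraries are not stranded. *Cyp6a9* itself was at 47.1, 48.4 and 46.5 RPKM in *Or47b1* (log2 fold change -0.22) and at 82.0 and 67.8 RPKM in *fruLexA/fru4-40* (0.44), against 54.4, 58.1 and 53.2 RPKM in w1118 GH, and both passed (adjusted p of 0.039 and 0.0011, edgeR). Its call in *Or47b1* is lost in 9 of 22 other settings, and that in *fruLexA/fru4-40* with all 15 samples.

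To the right of *Cyp6a20*, *Cyp6a21* rose in all 3 mutants where *Cyp6a20* fell. It was at 87.5, 81.7 and 85.6 RPKM in *Or47b1*, at 131.8, 120.2 and 110.3 RPKM in *Or67dGAL4* and at 112.3 and 115.8 RPKM in *fruLexA/fru4-40*, against 55.8, 53.9 and 51.8 RPKM in w1118 GH. The groups did not overlap, and the log2 fold changes were 0.66, 1.17 and 1.08 (adjusted p of 2.1e-05, 1.1e-07 and 9.5e-07, edgeR). *Cyp6a23* rose by 1.12, 1.35 and 1.66 in the same order. *Cyp6a8*, which is inducible by xenobiotics, fell in *Or67dGAL4* only, where its 3 samples spread from 177.3 to 344 RPKM, against 368 to 457 RPKM in w1118 GH (log2 fold change -0.61 ± 0.20, adjusted p = 0.035, edgeR), and this call is lost in 9 of 22 other settings.

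**Figure D4:**
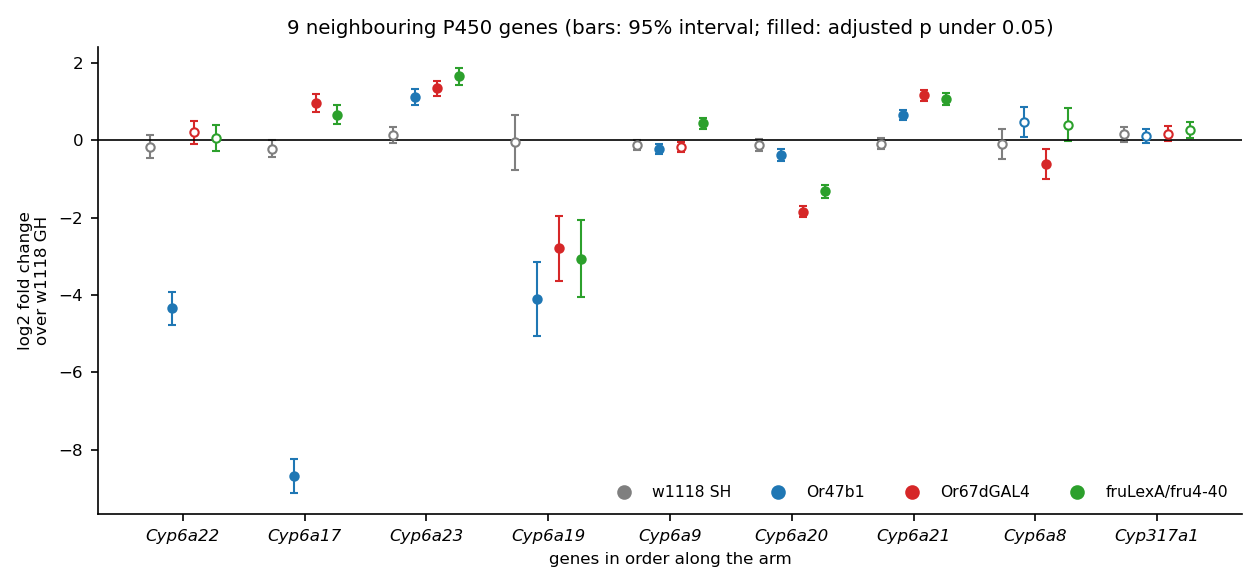
Log2 fold change over w1118 GH (vertical axis) of the 9 neighboring P450 genes in their order along the arm (horizontal axis), with the 95% interval from the edgeR fit. Colors mark w1118 SH and the 3 mutants, filled points have an adjusted p under 0.05 and open ones do not. *Cyp6a22* and *Cyp6a17* drop in *Or47b1* alone (-4.34 and -8.68), *Cyp6a19* and *Cyp6a20* drop in the 3 mutants, and *Cyp6a23* and *Cyp6a21* rise in them.

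*Cyp6a14* and its neighbor *Cyp6a13* also split the mutants. *Cyp6a14* had 15, 10 and 5 counts in *Or47b1*, 120, 146 and 135 counts in *Or67dGAL4* and 29 and 12 counts in *fruLexA/fru4-40*, against 100, 92 and 83 counts in w1118 GH. It fell by 2.89 ± 0.30 in *Or47b1* and by 1.92 ± 0.32 in *fruLexA/fru4-40* and was higher in *Or67dGAL4* by 0.94 ± 0.25 on the log2 scale (adjusted p of 1.7e-05, 0.00088 and 0.012, edgeR). *Cyp6a13* was at 9.72, 10.1 and 8.64 RPKM in *Or67dGAL4* and at 27.98 and 28.9 RPKM in *fruLexA/fru4-40*, against 18.7, 19.5 and 17.9 RPKM in w1118 GH, so that the groups lay apart in opposite directions (log2 fold changes -0.98 and 0.60, adjusted p of 1e-06 and 0.00013, edgeR). For *Cyp6a13*, *fruLexA/fru4-40* replicate 1, at 17.1 RPKM, lay below the w1118 GH range, and the call is lost with all 15 samples (adjusted p = 0.073, edgeR).

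Other family 6 genes moved mostly upward. *Cyp6d5* was at 194.2, 179.5 and 148.9 RPKM in *Or47b1*, at 384, 406 and 289.5 RPKM in *Or67dGAL4* and at 292 and 304.7 RPKM in *fruLexA/fru4-40*, against 95.6, 87.9 and 116.7 RPKM in w1118 GH. All mutant samples were above all w1118 GH samples (log2 fold changes 0.80, 1.85 and 1.58, adjusted p of 0.0014, 1.3e-06 and 1.7e-05, edgeR). *Cyp6w1*, among the highest P450 genes of the antenna, averaged 1469 ± 186 RPKM in *Or67dGAL4* (n = 3) and 1468 ± 30.1 RPKM in *fruLexA/fru4-40* (n = 2), against 964 ± 30.1 RPKM in w1118 GH (n = 3), and it was higher by 0.61 in both (adjusted p of 0.00062 and 0.0014, edgeR). *Cyp6g1* averaged 1320 ± 188 RPKM in *Or67dGAL4*, against 1057 ± 127 RPKM in w1118 GH, with overlapping samples and a call (log2 fold change 0.32, adjusted p = 0.042, edgeR) that is lost in 13 of 22 other settings. *Cyp6v1* was at 12.3, 12.6 and 10.7 RPKM in *Or67dGAL4*, against 6.65, 6.47 and 6.90 RPKM in w1118 GH (0.83 ± 0.13, adjusted p = 0.00054, edgeR), with no overlap. Smaller changes that are lost in some other settings were those of *Cyp6u1* in *Or67dGAL4* (0.30, lost in 7 of 22) and *Cyp6d4* in *Or47b1* (0.45, lost in 16 of 22). *Cyp6t3*, which acts in ecdysone synthesis in the larval prothoracic gland, stayed between 277 and 371 RPKM in all 14 samples.

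The paired family 9 genes *Cyp9b1* and *Cyp9b2*, which are neighbors on 2R, were both higher in *Or67dGAL4* and *fruLexA/fru4-40*, and *Cyp9b2* also passed in *Or47b1*. *Cyp9b1* was at 141.1, 146.7 and 141.6 RPKM in *Or67dGAL4*, against 18.1, 13.6 and 17.8 RPKM in w1118 GH (log2 fold change 3.11 ± 0.12, adjusted p = 1e-09, edgeR), and at 32.4 and 30.1 RPKM in *fruLexA/fru4-40* (0.92 ± 0.12, adjusted p = 0.00019, edgeR). In *Or47b1*, at 16.0, 17.5 and 20.8 RPKM, it overlapped w1118 GH. *Cyp9b2* was highest in *Or47b1*, at 416, 426 and 389.9 RPKM, and was at 236, 196.9 and 175.0 RPKM in *Or67dGAL4* and at 118.4 and 117.9 RPKM in *fruLexA/fru4-40*, against 89.4, 82.1 and 77.3 RPKM in w1118 GH. Each mutant lay above the w1118 GH range (log2 fold changes 2.31, 1.29 and 0.51, adjusted p of 5.9e-09, 1.1e-06 and 0.0042, edgeR), but *fruLexA/fru4-40* replicate 1 was below it, at 71.3 RPKM, and its call is lost with all 15 samples (adjusted p = 0.24). *Cyp9f2* and *Cyp9f3* passed only in *fruLexA/fru4-40* (log2 fold changes 0.33 and 0.56, adjusted p of 0.014 and 0.0045, edgeR), and both calls are lost without replicate 2 of that group.

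*Cyp9h1*, the gene that was higher in single-housed males, was lower in both receptor mutants. It was at 10.5, 8.90 and 11.4 RPKM in *Or47b1* and at 8.76, 6.18 and 9.25 RPKM in *Or67dGAL4*, against 15.5, 14.5 and 16.3 RPKM in w1118 GH. The samples did not overlap, with log2 fold changes of -0.60 ± 0.12 and -0.95 ± 0.13 (adjusted p of 0.0039 and 0.00014, edgeR), while in *fruLexA/fru4-40* the change of -0.18 did not pass.

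In family 28, *Cyp28a5* was at 37.0, 33.2 and 32.5 RPKM in *Or47b1* and at 101.4, 89.2 and 91.6 RPKM in *Or67dGAL4*, against 58.8, 66.9 and 61.0 RPKM in w1118 GH. It lay below the w1118 GH range in the *Or47b1* samples and above it in the *Or67dGAL4* samples (log2 fold changes -0.86 and 0.60, adjusted p of 7.3e-06 and 0.00014, edgeR). The other 3 genes of the family, including the nicotine-resistance gene *Cyp28d1*, passed in none of the mutants. *Cyp310a1* passed in *Or47b1* on 14, 10 and 10 counts, against 3, 4 and 2 counts in w1118 GH, and had 1 count in each w1118 SH sample.

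The CYP4 clan held 32 of the 81 genes and 23 of the 65 tested. Of these 23, 3 were higher and 4 lower in *Or47b1*, 9 higher and 1 lower in *Or67dGAL4* males and 6 higher and none lower in *fruLexA/fru4-40*. The shares of all tested genes that passed were 20.4%, 29.5% and 30.8%, in either direction. The median log2 fold changes of the 23 were -0.02, 0.45 and 0.03.

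The 3 genes of subfamily 4p sit side by side in 6.9 kb of 2R, in the order *Cyp4p2*, *Cyp4p1* and *Cyp4p3*, and their directions differed. *Cyp4p1* was at 291, 263 and 232 RPKM in *Or47b1* and at 486, 416 and 454 RPKM in *Or67dGAL4*, against 89.2, 106.1 and 110.2 RPKM in w1118 GH. Both mutants lay above the w1118 GH samples (log2 fold changes 1.36 ± 0.13 and 2.15 ± 0.13, adjusted p of 6.6e-06 and 1.1e-07, edgeR), while *fruLexA/fru4-40*, at 99.7 and 79.0 RPKM, overlapped them. *Cyp4p3*, on the other side of *Cyp4p1* from *Cyp4p2*, was lower in *Or47b1*, at 4.10, 2.80 and 3.65 RPKM, against 9.65, 10.4 and 9.31 RPKM in w1118 GH (log2 fold change -1.47 ± 0.20, adjusted p = 0.00018, edgeR). In *Or47b1*, then, the middle gene was higher and both of its neighbors were lower than in w1118 GH.

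*Cyp316a1* stood out in *Or67dGAL4*. It was at 11.2, 13.5 and 12.4 RPKM there, against 0.357, 0.939 and 0.368 RPKM in w1118 GH, which is 149, 208 and 153 counts against 8, 15 and 6 counts. All samples of the 4 other groups were under 1 RPKM. The log2 fold change was 4.49 ± 0.46 (adjusted p = 1.2e-05, edgeR), and the differences of *Or67dGAL4* from *Or47b1* and of *fruLexA/fru4-40* from *Or67dGAL4* were 5.15 and -4.94. It lies on 3L, as *Or67d* does, and next to *Cyp4d8*, which was also higher in *Or67dGAL4*, with 177.7, 147.3 and 135.4 RPKM, against 110.4, 103.5 and 96.8 RPKM in w1118 GH (0.57 ± 0.11, adjusted p = 0.0017, edgeR).

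Several CYP4 genes were higher in both *Or67dGAL4* and *fruLexA/fru4-40*. *Cyp4e3*, tied to permethrin tolerance in Malpighian tubules, was at 122.5, 107.8 and 142.9 RPKM in *Or67dGAL4* and at 75.0 and 74.4 RPKM in *fruLexA/fru4-40*, against 29.4, 39.0 and 28.9 RPKM in w1118 GH (log2 fold changes 1.94 and 1.21, adjusted p of 5.1e-07 and 9.2e-05, edgeR). *Cyp4d21*, also called *sxe1*, a male-biased gene that affects courtship, was at 282, 329 and 211 RPKM in *Or67dGAL4* and averaged 245.9 ± 83.5 RPKM (SD, n = 2) in *fruLexA/fru4-40*, against 105.5, 107.8 and 107.8 RPKM in w1118 GH (1.36 and 1.20, adjusted p of 0.00045 and 0.0022, edgeR). Both genes lay above the w1118 GH range in all samples of these mutants. The *Cyp4d21* call in *fruLexA/fru4-40* is lost without replicate 2 (adjusted p = 0.059, edgeR). *Cyp4d21* was also above the w1118 GH range in w1118 SH, at 131.5, 153.9 and 218 RPKM, without passing (0.65 ± 0.21, adjusted p = 0.16, edgeR). *Cyp4d20* rose in all 3 mutants, by 0.74, 0.98 and 1.39, and *Cyp4e1* by 1.12 in *Or67dGAL4* and 0.50 in *fruLexA/fru4-40*, a call that is lost without replicate 2 of that group. *Cyp4e2*, by contrast, was at 864, 857 and 741 RPKM in *Or47b1*, against 953, 1066 and 954 RPKM in w1118 GH, and its decrease of -0.27 (adjusted p = 0.044, edgeR) is lost in 13 of 22 other settings.

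*Cyp313a1* was higher in *fruLexA/fru4-40* alone among the mutants. It was at 479 and 339 RPKM there and at 454 RPKM in replicate 1, against 179.5, 183.5 and 169.9 RPKM in w1118 GH (log2 fold change 1.20 ± 0.25, adjusted p = 0.0036, edgeR), and the call is lost without replicate 2 (adjusted p = 0.065). The *Or67dGAL4* samples, at 141.4, 176.8 and 295 RPKM, spanned the w1118 GH values. *Cyp318a1* fell in *Or47b1* on 3, 7 and 18 counts, against 49, 48 and 43 counts in w1118 GH (log2 fold change -1.93 ± 0.49, adjusted p = 0.013, edgeR), a call that is lost without replicate 2 of *Or47b1* (adjusted p = 0.06). *Cyp313b1* was higher in *Or47b1*, at 2.49, 2.94 and 2.04 RPKM, and in *fruLexA/fru4-40*, at 2.08 and 1.48 RPKM, against 0.698, 0.852 and 0.918 RPKM in w1118 GH (log2 fold changes 1.60 and 1.12, adjusted p of 0.00058 and 0.0095, edgeR), and the call in *fruLexA/fru4-40* is lost without replicate 2 (adjusted p = 0.12). *Cyp4ac2* was at 132.8, 140.0 and 132.7 RPKM in *Or67dGAL4*, against 70.9, 81.0 and 57.6 RPKM in w1118 GH, with no overlap (0.95 ± 0.19, adjusted p = 0.0024, edgeR), and its adjacent genes *Cyp4ac1* and *Cyp4ac3* did not pass there. *Cyp313a4* was higher in *Or67dGAL4* by 0.39 ± 0.12 (adjusted p = 0.025, edgeR), a call lost in 6 of 22 other settings.

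*Cyp4g1*, the oenocyte enzyme that completes cuticular hydrocarbon synthesis, spread widely within groups. It was at 0, 0.582 and 9.24 RPKM in w1118 SH, at 103.8, 34.2 and 12.4 RPKM in *Or47b1*, at 88.9, 40.3 and 6.15 RPKM in *Or67dGAL4* and at 210.0 and 151.8 RPKM in *fruLexA/fru4-40*, against 0.598, 24.4 and 74.9 RPKM in w1118 GH. All groups but *fruLexA/fru4-40* overlapped w1118 GH, and no comparison passed. The excluded replicate 1 of *fruLexA/fru4-40*, at 42.1 RPKM, lay within the w1118 GH range. The 3 oenocyte markers *FASN2*, *FASN3* and *FarO* summed to 2.90 to 4.42 RPKM in w1118 SH, 6.42 to 9.88 RPKM in *Or47b1*, 6.98 to 8.87 RPKM in *Or67dGAL4*, 8.03 to 8.83 RPKM in *fruLexA/fru4-40* and 2.85 to 4.61 RPKM in w1118 GH, and their part in the *Cyp4g1* values was not tested. The related *Cyp4g15* was steadier, and fell in *Or67dGAL4*, to 34.4, 34.1 and 36.3 RPKM, against 44.5, 41.4 and 48.6 RPKM in w1118 GH (log2 fold change -0.36, adjusted p = 0.0089, edgeR).

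The mitochondrial clan held 7 genes, of which 6 were tested. Of these, 2 were higher in *Or47b1*, 3 higher and 1 lower in *Or67dGAL4* males and 5 higher in *fruLexA/fru4-40*. The shares of all tested genes that passed were 20.4%, 29.5% and 30.8%, in either direction. All 5 genes of family 12 passed in *fruLexA/fru4-40*, with log2 fold changes between 0.42 for *Cyp12a4* and 1.07 for *Cyp12c1*. *Cyp12a4*, a lufenuron-resistance gene, was at 78.7, 68.3 and 73.0 RPKM in *Or67dGAL4* and at 55.5 and 56.5 RPKM in *fruLexA/fru4-40*, against 41.9, 46.4 and 37.3 RPKM in w1118 GH (0.81 and 0.42, adjusted p of 0.00016 and 0.021, edgeR). The samples of both mutants were above those of w1118 GH, but *fruLexA/fru4-40* replicate 1, at 31.2 RPKM, was below them. *Cyp12e1* was lower in *Or67dGAL4*, at 7.19, 7.97 and 6.47 RPKM, and higher in *fruLexA/fru4-40*, at 20.5 and 14.8 RPKM, against 13.1, 11.8 and 10.8 RPKM in w1118 GH (-0.72 and 0.57, adjusted p of 0.0025 and 0.012, edgeR). *Cyp12b2* passed in all 3 mutants (log2 fold changes 0.30, 0.57 and 0.45), *Cyp12a5* in *Or47b1* (0.39) and *fruLexA/fru4-40* (0.61), and *Cyp12c1* in *Or67dGAL4* (1.24) and *fruLexA/fru4-40*. In *Or47b1* the *Cyp12b2* call is lost in 7 and the *Cyp12a5* call in 9 of 22 other settings. Each of the 5 calls in *fruLexA/fru4-40* is lost in at least 1 other setting, and those of *Cyp12a4*, *Cyp12a5*, *Cyp12b2* and *Cyp12e1* are lost without replicate 2 of that group.

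A pair of family 12 genes outside the symbol rule, *Cyp12d1-d* and *Cyp12d1-p*, which are near-identical copies known for DDT and dicyclanil resistance, moved the other way. *Cyp12d1-p* was at 0.574, 0.656 and 0.640 RPKM in *Or47b1*, at 1.17, 0.905 and 0.815 RPKM in *Or67dGAL4* and at 2.43 and 2.77 RPKM in *fruLexA/fru4-40*, against 11.2, 13.7 and 12.9 RPKM in w1118 GH. The groups did not overlap, and the log2 fold changes were -4.34, -3.71 and -2.28 for this gene and -4.29, -2.29 and -2.08 for *Cyp12d1-d* (all adjusted p at most 7.7e-05, edgeR). The copies can share reads, and the methods do not state how such reads were counted.

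In the CYP2 clan 3 of 4 genes were tested and none passed in any comparison with w1118 GH. *Cyp18a1* had the largest estimate of the clan, at -3.21 ± 0.84 in w1118 SH on the log2 scale (adjusted p = 0.099, edgeR), from levels of at most 0.527 RPKM in any w1118 sample. Of the 6 ecdysone-synthesis P450 genes that carry other symbols (*phtm*, *dib*, *sad*, *shd*, *spo* and *spok*), only *shd* had enough counts to be tested, it passed nowhere, and the 6 together summed to at most 0.607 RPKM in any of the 14 samples.

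The calls were unevenly spread over the chromosome arms. On 2R, which holds 32 of the 81 P450 genes and also *Or47b*, 16 of 27 tested P450 genes passed in *Or47b1*, against 24.2% of all tested genes of that arm. On 3L, which holds *Or67d*, 4 of 5 passed in *Or67dGAL4*, against 34.5%, and on 3R, which holds *fru*, 8 of 10 passed in *fruLexA/fru4-40*, against 30.1%. On 2R, which holds neither of these genes, 18 of 27 passed in *Or67dGAL4* (31.3% of all tested genes of the arm) and 14 of 27 in *fruLexA/fru4-40* (32.1%). On the X chromosome, 1, 2 and 0 of 12 passed in *Or47b1*, *Or67dGAL4* and *fruLexA/fru4-40*, against 16.1%, 28.5% and 31.9%. An effect of the mutated gene and one of the DNA linked to it in the mutant line cannot be told apart here.

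The P450 enzymes need electron donors, and the log2 fold changes of the donors that passed lay between -0.40 and 0.58. *Cyt-b5* was at 819, 652.5 and 666 RPKM in *Or67dGAL4* and at 881 and 835 RPKM in *fruLexA/fru4-40*, against 587, 563.5 and 572 RPKM in w1118 GH (log2 fold changes 0.31 and 0.58, adjusted p of 0.013 and 0.00056, edgeR). The P450 reductase gene *Cpr* was higher in *Or67dGAL4* by 0.30 (adjusted p = 0.037, edgeR), and no other comparison of it with w1118 GH passed. Of the mitochondrial electron carriers, *Fdx1* was lower in *Or47b1* (-0.33) and *Or67dGAL4* (-0.40), *Fdx2* was lower in *Or47b1* (-0.30), and *dare* passed nowhere.

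Genes of heme supply and of detoxification control gave no common direction. Of 6 heme synthesis genes, 1 was higher and 2 lower in *Or47b1*, 1 higher and 2 lower in *Or67dGAL4* males and 1 higher in *fruLexA/fru4-40*. *Urod* was the one that rose in *Or47b1* (0.67) and *fruLexA/fru4-40* (0.73). Of 6 regulators, *cnc*, the fly Nrf2 homolog that drives detoxification genes, was higher in *Or67dGAL4* (0.27, adjusted p = 0.019, edgeR), its partner *maf-S* was higher in *Or47b1* (0.27), and the xenobiotic receptor *Hr96* was lower in *Or67dGAL4* (-0.36) and *fruLexA/fru4-40* (-0.40). *Keap1*, *ss* and *tgo* passed in none of the 4 comparisons.

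Exons of 21 of the 81 genes overlap those of another gene, and without strand such reads cannot be told apart. Besides *Cyp6a19* and *Cyp6a9*, the tested genes with the longest overlaps were *Cyp4d14* (97.2% of its exon length, with *ND-B14.5A* and an antisense RNA), *Cyp303a1* (33.0%, with *heix*), *Cyp317a1* (32.6%, with *Kank*), *Cyp4s3* (20.1%, with *Rab3-GEF*) and *Cyp6v1* (18.4%, with the antisense gene *asRNA:CR45466*). For *Cyp4e1*, *Cyp6g1*, *Cyp6g2*, *Cyp6t3*, *Cyp6u1*, *Cyp9b1*, *Cyp12b2* and *Cyp28d1* the overlap was at most 4.7% of the exon length, and the other 6 genes were not tested.

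Markers of other tissues moved in the mutants too, and none of them passed in w1118 SH. The 5 gut markers summed to 1.67 to 13.4 RPKM in *Or47b1*, 20.5 to 112 RPKM in *Or67dGAL4* and 6.65 to 14.2 RPKM in *fruLexA/fru4-40*, against 10.8 to 24.6 RPKM in w1118 GH, with *Amy-p* and *Amy-d* higher in *Or67dGAL4* and *Mal-A1*, which overlaps *Cyp4e1*, lower in all 3 mutants. The 4 fat body markers summed to 10.6 to 14.9, 9.07 to 31.3 and 12.4 to 33.2 RPKM in the same order, against 8.23 to 14.3 RPKM in w1118 GH, and *Lsp2* and *Lsp1gamma* passed in *Or67dGAL4*. The 4 muscle markers summed to 13.9 to 24.6, 32.7 to 76.9 and 14.8 to 69.6 RPKM, against 8.83 to 62.7 RPKM in w1118 GH. Of these, *TpnC4* was higher in *Or67dGAL4* and *fruLexA/fru4-40*, and *Act88F* in *fruLexA/fru4-40*. Of the 3 hemocyte markers, *NimC1* was higher in *Or47b1* (log2 fold change 2.40) and *fruLexA/fru4-40* (2.43), and *Ppn* was lower in all 3 mutants (-1.16, -0.85 and -1.07). Of the 7 eye markers, *ninaC* was higher in *Or47b1* and lower in *Or67dGAL4*, and *Rh4* was higher in *Or67dGAL4* and *fruLexA/fru4-40*. The 7 summed to 14.6, 45.8, 16.7 and 22.0 RPKM in replicate 3 of w1118 SH, *Or47b1*, *Or67dGAL4* and *fruLexA/fru4-40*. Replicate 3 of w1118 GH was at 2.39 RPKM, and no other sample used exceeded 4.68 RPKM. The glial marker *moody* was higher in *Or47b1* and *Or67dGAL4*, by 0.24 and 0.29, and the chordotonal marker *btv* was lower in *Or67dGAL4* and *fruLexA/fru4-40* (-0.64 and -0.59). The part of these tissues in the P450 values was not tested.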

How the data were processed

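Antennal poly(A) RNA was made into libraries that, per the labels, do not keep strand. Per the study's methods, the authors used FASTP for trimming and MapSplice2 for alignment against dm6, after which duplicate, poorly mapped and unpaired reads were dropped, and the submitters' notes name SAMtools and featureCounts. Versions and strand setting of the counting are not given in the sources used here. The deposited values are raw counts of 17490 genes. Symbols came from gene identifiers (17288 genes) or an identical position (121) in Ensembl BDGP6.54. Counts of the 14 samples were fitted with edgeR 4.0.16 in R 4.3.3 (TMM, filterByExpr, quasi-likelihood test, Benjamini-Hochberg over 10358 genes, threshold 0.05, common biological coefficient of variation 0.151). RPKM was computed from TMM-scaled library sizes. The floor of 3 counts is 0.201 to 0.350 CPM. The counting intervals of summed counts cover counting error only. The SE, also used for the intervals from the edgeR fit, is the absolute log2 fold change over the square root of the test's F statistic. The study calls the samples of a group biological replicates. *fruLexA/fru4-40* replicate 1 was left out of the fit for the quality warning in its label. DESeq2 1.42.0, RLE size factors, total counts only, other filters, thresholds and references, the compared groups only, a replicate block, all 15 samples and leaving out each sample were alternatives. Named genes are *Cyp6a20*, *Cyp4p2*, all that passed against w1118 GH (up to 5 per direction in full) and the 10 highest in w1118 GH, with neighbors and family members for context, chosen after their values were seen. Members and lists were chosen with earlier results of these data known. The scripts were tested on simulated data. Neighbors lie within 20 kb. Exon usage was not analysed here.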

Additional observations from a re-analysis of the deposited data

Results flagged for a closer look

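Some P450 genes moved in opposite directions in 2 mutants, and a direct edgeR quasi-likelihood test of the difference between those mutants passed after Benjamini-Hochberg adjustment over 10358 genes. On the log2 scale, *Cyp6a17* differed by 9.65 between *Or67dGAL4* and *Or47b1* (adjusted p = 7.2e-12) and by 9.35 between *fruLexA/fru4-40* and *Or47b1* (1.9e-11). *Cyp6a14* differed by 3.83 between *Or67dGAL4* and *Or47b1* (1.3e-06) and by -2.86 between *fruLexA/fru4-40* and *Or67dGAL4* (6.3e-05). *Cyp28a5* differed by 1.46 between *Or67dGAL4* and *Or47b1* (5.4e-08). *Cyp6a13* differed by 1.58 (3.6e-08) and *Cyp12e1* by 1.28 (9.9e-05) between *fruLexA/fru4-40* and *Or67dGAL4*. *Cyp6a9* differed by 0.66 between *fruLexA/fru4-40* and *Or47b1* (5.8e-05), and its exons overlap those of *Cyp6a19*. No group had the 4 samples needed to look for a sample far from the others.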

How the results depend on the processing

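Of the 167 gene and comparison pairs past the threshold, 112 kept their call in every one of up to 22 other fits (tool, scaling, filter, block or samples), 55 were lost in at least 1 and 0 changed sign. A fit that did not test a gene was skipped for it, and a pair to which a fit gave no adjusted p was counted as kept. The same 112 passed wherever w1118 SH was the reference, which lost 12 of 82. Stricter thresholds are counted apart. The count of P450 genes past the threshold in w1118 SH was 0 with the stricter rule of the study (adjusted p times 4 under 0.01), with a log2 fold change of at least 1, with the compared groups only, with total counts only, with a mean of at least 10 counts and with all 15 samples. With a log2 fold change of at least 1 the counts were 13 in *Or47b1*, 14 in *Or67dGAL4* males and 13 in *fruLexA/fru4-40* against w1118 GH. They were 17 for *Or67dGAL4* over *Or47b1*, 9 for *fruLexA/fru4-40* over *Or47b1* and 9 for *fruLexA/fru4-40* over *Or67dGAL4*. Of all tested genes, 7.05%, 7.93%, 6.73%, 7.56%, 6.09% and 5.52% passed this rule, in the same order. With the stricter rule the counts were 16 in *Or47b1*, 24 in *Or67dGAL4* males and 15 in *fruLexA/fru4-40* against w1118 GH. They were 19 for *Or67dGAL4* over *Or47b1*, 18 for *fruLexA/fru4-40* over *Or47b1* and 13 for *fruLexA/fru4-40* over *Or67dGAL4*. The shares of all tested genes that passed it were 8.38%, 10.3%, 9.18%, 9.27%, 9.54% and 5.64%, in the same order. Leaving out each sample in turn gave 0 to 1 in w1118 SH, 18 to 27 in *Or47b1*, 28 to 33 in *Or67dGAL4*, 17 to 30 in *fruLexA/fru4-40*, and 26 to 36, 22 to 29 and 19 to 26 for the 3 mutant pairs in the order above. With total counts only, the mean level of *Cyp6a20* was 765.3 RPKM in w1118 SH and 838.3 RPKM in w1118 GH. Replicate numbers were not treated as pairing the samples, since 10 of 26 pairs of the same number had a correlation of deviations over 0.1. Those of the number 3 outside *fruLexA/fru4-40* did deviate together, with all 6 correlations between 0.193 and 0.358, and 5 of 14 samples were closest to their own number. A replicate block gave 1 call in w1118 SH, 26 in *Or47b1*, 32 in *Or67dGAL4* males and 28 in *fruLexA/fru4-40*, against 1, 24, 32 and 26 without it. Over all genes tested, w1118 SH had 103 calls (71 higher and 32 lower), against 352 with DESeq2 (183 and 169), 165 with the replicate block, 13 with the compared groups only, 16 with all 15 samples and 5 to 215 with 1 sample left out. With all 15 samples the calls over all genes were 1219 in *Or47b1* and 1608 in *Or67dGAL4* against w1118 GH, in place of 2117 and 3052, and 1401, 2159 and 1140 for the 3 mutant pairs, in place of 2778, 3277 and 2506. For *fruLexA/fru4-40* over *Or67dGAL4*, the compared groups only gave 998, and the split was 1357 higher and 1149 lower, against 1105 and 1439 with RLE size factors and 1000 and 1506 with DESeq2. For *Or47b1* against w1118 GH it was 1084 higher and 1033 lower, against 901 and 1352 with total counts only. Without *fruLexA/fru4-40* replicate 2, the calls over all genes in *fruLexA/fru4-40* against w1118 GH were 1465, in place of 3187. The cause of these shifts was not tested. In all 7 comparisons edgeR's filter on low counts set which genes could be tested. The floor of 3 counts, or 0.201 to 0.350 CPM, took no part in the tests.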
